A study of Mus musculus with 4 samples.

Results

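The genes described here encode 6 methyltransferases of lysine 4 on histone H3 (Kmt2a, Kmt2b, Kmt2c, Kmt2d, Setd1a and Setd1b) and 4 lysine demethylases (Kdm1a, Kdm5a, Kdm5b and Kdm6b). They were chosen by symbol from the deposited count tables, and all 10 were found among the 49997 gene symbols listed there. The RNA came from iMOP cells, an immortalized mouse line of multipotent otic progenitors, which give rise to inner ear neurons. Proliferating cultures (2 libraries) grew in DMEM/F12 with B27, carbenicillin and basic FGF at 20 ng/ml. Cultures of iMOP-derived neurons (2 libraries) grew in Neurobasal medium with N21, L-glutamine and 1 µM K03861, which blocks the kinase CDK2 and with it the cell cycle. Both groups are labelled wild-type and come from the same line, so the replicates are cultures of a single source. The study's title links CHD7, a remodelling enzyme of chromatin, to domain boundaries during neuronal differentiation, and the comparison asks which of these enzyme genes differ in RNA level between progenitors and neurons.

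Methylation of histone H3 at lysine 4 is laid down by large complexes known as COMPASS, each built around a single catalytic enzyme. SETD1A and SETD1B give most of the trimethylation at active promoters, KMT2A and KMT2B act at selected promoters such as those of homeobox genes, and KMT2C and KMT2D place the monomethylation found at enhancers, where CHD7 is known to bind. KDM1A removes monomethyl and dimethyl groups within the CoREST complex, KDM5A and KDM5B remove dimethyl and trimethyl groups, and KDM6B removes the repressive trimethylation of lysine 27 placed by Polycomb.

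The 6 methyltransferases share a catalytic SET domain near the end of the protein, and the bases that encode the end itself are printed here with close relatives next to each other. The last 60 coding bases, stop codon included, were read from the longest coding GENCODE transcript of each gene (mouse release M21, GRCm38). They are shown 5′ to 3′ on the coding strand, and capitals mark a G or C at the third position of a codon.
Kmt2a: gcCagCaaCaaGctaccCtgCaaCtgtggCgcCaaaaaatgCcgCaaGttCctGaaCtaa
Kmt2b: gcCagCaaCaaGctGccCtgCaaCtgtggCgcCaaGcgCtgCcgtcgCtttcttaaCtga
Kmt2c: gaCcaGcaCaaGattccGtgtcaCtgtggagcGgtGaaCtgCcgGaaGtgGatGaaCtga
Kmt2d: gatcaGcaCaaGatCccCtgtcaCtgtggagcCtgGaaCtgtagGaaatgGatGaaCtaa
Setd1a: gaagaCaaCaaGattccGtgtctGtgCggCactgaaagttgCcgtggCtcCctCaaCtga
Setd1b: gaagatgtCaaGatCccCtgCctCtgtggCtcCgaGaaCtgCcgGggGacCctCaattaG

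These stretches lie in the last exon of each gene, on the minus strand for the KMT2 genes (Kmt2a chr9:44807902-44807961, Kmt2b chr7:30569161-30569220, Kmt2c chr5:25273666-25273725, Kmt2d chr15:98834500-98834559) and on the plus strand for Setd1a (chr7:127799420-127799479) and Setd1b (chr5:123165947-123166006). Position by position, Kmt2c and Kmt2d had 50 of 60 bases in common, Kmt2a and Kmt2b 48, and Setd1a and Setd1b 41. The other 12 pairs had 32 to 39 in common. Over the whole coding sequence some of the relatives differ in composition. At the third position of codons, G or C made up 39.8% in Kmt2c and 59.9% in Kmt2d. Setd1a and Setd1b had 54.7% and 69.5%, while Kmt2a and Kmt2b were closer, at 53.2% and 56.5%. Among the demethylases the share was 43.0% for Kdm5a, 49.4% for Kdm1a, 50.8% for Kdm5b and 63.9% for Kdm6b. In the printed stretches Kmt2c and Kmt2d stood the other way round, with G or C ending 15 and 13 of 20 codons. Further on, the GC content of whole transcripts, not this third-position share, is set beside the differences between libraries.

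The libraries held 7446361 to 14484011 counts, of which the 18S ribosomal RNA row took 53.3% and 59.4% in the replicate 1 libraries and 75.0% and 76.1% in the replicate 2 libraries, leaving 2595578 to 3850766 for all other genes. The 10 genes together had 4162 to 5950 counts per library, and the lowest single value was 136 counts. All 10 passed the filter on low counts. The labels were set beside markers, given as counts divided by the TMM-scaled library size (CPM) and summed over a list. Of 12 tested neuron markers 8 were higher and 4 lower in neurons, none called by edgeR. The list sum was 170 and 352 CPM in proliferating replicates 1 and 2 and 203 and 374 CPM in the neuron replicates. That sum followed the replicate number and leaned on Tubb3, with 19.1 and 193 CPM in proliferating cells and 28.7 and 104 CPM in neurons. Groups did not overlap for 2 of the 12, both higher in neurons, as for 12.9% of all tested genes. All 10 dividing cell markers were higher in neurons by the fit, with 0 called and overlapping groups for all 10. Their sum was 346 and 94.2 CPM in proliferating cells and 439 and 257 CPM in neurons. Of 10 otic progenitor markers 5 were tested, 1 higher and 4 lower in neurons with 0 called. Groups did not overlap for 3 of the 5, 1 higher and 2 lower. This list summed to 182 and 348 CPM in proliferating cells and 190 and 83.3 CPM in neurons. Within it Pax2 and Pax8 had 0 counts in all 4 libraries, while Sox2 had 216 to 402. Of 10 glial markers 4 were tested, all lower in neurons with 0 called, with sums of 137 and 122 CPM against 70.7 and 25.0 CPM. Groups did not overlap for 3 of the 4, all lower, as for 14.5% of all tested genes. The largest of these differences was in Gfap, at -6.47 on the log2 scale (edgeR p-value 2.6e-05, adjusted 0.110). Hair cell markers summed to at most 24.5 CPM and fibroblast markers to at most 17.1 CPM. The part of these markers in the results below was not tested. In bulk RNA, fewer cells of a type and less RNA per cell cannot be told apart.

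None of the 10 genes differed detectably between neurons and proliferating cells. The edgeR quasi-likelihood test called 0 of the 10 (Benjamini-Hochberg adjusted p-value under 0.05), where 0% of 12783 tested genes were called in either direction. DESeq2 also called 0 of the 10. Over all genes given an adjusted p-value, DESeq2 called 0.104% higher and 0.416% lower. Unadjusted edgeR p-values ran from 0.556 to 0.985, so 0 of the 10 were under 0.05, a level passed by 0.915% of tested genes higher in neurons and by 2.51% lower. With the replicate number as a block, 0.0235% of tested genes were called lower and 0% higher, and again 0 of the 10. In that edgeR fit the lowest unadjusted p-value of the set was 0.312, while 2.7% of tested genes were under 0.05 and higher and 3.48% were under 0.05 and lower. The fitted log2 differences (neuron minus proliferating) were positive for 4 genes and negative for 6, with a median of -0.09 beside 0.02 for all tested genes. Their median size without sign was 0.18, against 0.33 for the 7295 tested genes that averaged 50 counts or more. The 10 genes lay at percentiles 85.7 to 97.8 of mean log2 CPM among tested genes, so the 2 medians were not matched for level. CPM values of neurons and proliferating cells overlapped for all 10, whereas 27.4% of tested genes had groups that did not overlap. The 95% intervals of the fitted differences reached from -1.40 to 1.67 over the set, and all 10 intervals held 0.

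**Figure D1:**
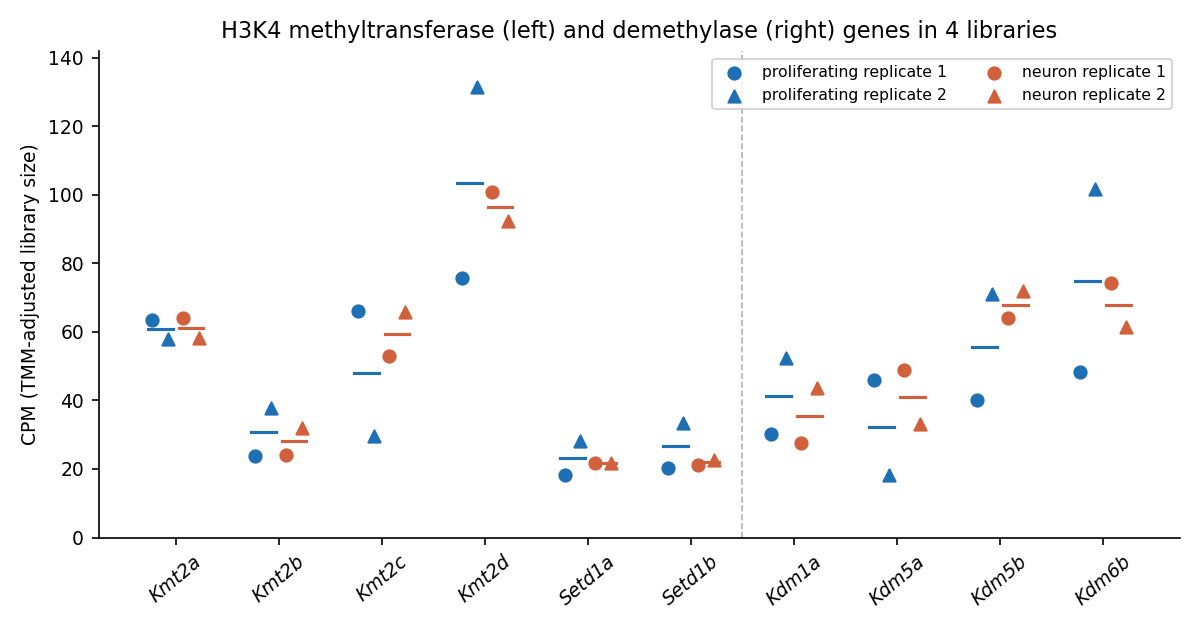
CPM (counts scaled by the TMM-adjusted library size, linear axis from 0) of each gene in the 2 proliferating (blue) and 2 neuron (orange) libraries, circles for replicate 1 and triangles for replicate 2, with short lines at the group means. The groups overlap for all 10 genes, and proliferating replicate 2 is the highest or lowest library for 9 of them.

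Kmt2a, the homologue of Drosophila trithorax, had the most even level of the set as counted, though not after the correction for GC content described further on, where Kmt2b, Setd1a and Setd1b had smaller ranges. It had 63.4 and 58.0 CPM in proliferating replicates 1 and 2 and 63.9 and 58.2 CPM in the neuron replicates. The group means were 60.7 ± 3.8 and 61.1 ± 4.01 CPM (SD, n = 2 each), and the log2 difference was 0.0083 with a 95% interval of -0.99 to 1.01. Both replicate 1 libraries stood slightly above both replicate 2 libraries, and the highest value was 1.10 times the lowest. A long noncoding RNA gene, Gm39326, overlaps 26434 bases of the Kmt2a span and had 37 to 243 counts against 430 to 774 for Kmt2a, and since no use of strand in counting is stated, reads from the overlap could not be assigned with certainty.

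Its close relative Kmt2b behaved differently between replicates. Kmt2b had 23.7 and 37.7 CPM in proliferating cells and 24.2 and 31.9 CPM in neurons, with both replicate 2 libraries higher. The log2 difference between groups was -0.13 (SE 0.48). KMT2A and KMT2B both work with menin, and the ratio of Kmt2a to Kmt2b counts, in which gene length cancels between libraries, was 2.68 and 2.65 in the replicate 1 libraries and 1.54 and 1.83 in the replicate 2 libraries. This ratio separated the replicate numbers and not the groups.

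Kmt2d, a main enhancer monomethylase, had the most counts of the set. It had 75.7 and 131.3 CPM in proliferating cells and 101 and 92.4 CPM in neurons. The neuron values lay between those of the proliferating replicates, and the log2 difference was -0.10 (SE 0.47). Its partner gene Kmt2c had 66.0 and 29.7 CPM in proliferating cells and 52.9 and 65.9 CPM in neurons, a log2 difference of 0.31 (SE 0.53). Proliferating replicate 2 was low for Kmt2c and high for Kmt2d. Without that library the log2 difference of Kmt2c was -0.13, and without proliferating replicate 1 it was 0.96 with an edgeR adjusted p-value of 0.255. The ratio of Kmt2c to Kmt2d counts was 0.872 and 0.226 in proliferating cells, and neurons had 0.526 and 0.713. The proliferating values of this ratio thus lay on either side of the neuron values.

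Setd1a and Setd1b, the catalytic subunits of the promoter COMPASS complexes, were level in neurons. Setd1a had 18.3 and 28.1 CPM in proliferating cells and 21.7 and 21.9 CPM in neurons. Setd1b had 20.2 and 33.5 CPM in proliferating cells and 21.1 and 22.7 CPM in neurons. For both genes the neuron values fell between the 2 proliferating values. The log2 differences were -0.09 (SE 0.46) for Setd1a and -0.29 (SE 0.47) for Setd1b, and the latter had a 95% interval of -1.40 to 0.82.

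Among the demethylases, Kdm1a had the same sign of difference in both replicate pairs. It had 30.3 and 52.5 CPM in proliferating cells and 27.5 and 43.6 CPM in neurons, lower within each pair by little: the log2 CPM difference was -0.14 between the replicate 1 libraries and -0.27 between the replicate 2 libraries. The difference between replicate numbers was larger than that between groups, and the fitted value was -0.22 (SE 0.51). Negative differences in both pairs were seen for 25.5% of tested genes. Neurons are known to make a KDM1A splice form with an added microexon, which counts per gene cannot show. The coding gene Luzp1 overlaps 4193 bases of the Kdm1a span and had 70 to 287 counts, against 328 to 429 for Kdm1a.

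Kdm5a and Kdm5b, both erasers of trimethylated lysine 4, had positive differences in each pair, as did 28.8% of tested genes. Kdm5a had 46.0 and 18.4 CPM in proliferating cells and 48.9 and 33.1 CPM in neurons, and both replicate 2 libraries were low. Its pair differences in log2 CPM were 0.09 (replicate 1) and 0.85 (replicate 2), and the fitted value was 0.35 (SE 0.57, edgeR adjusted p-value 0.9998). Kdm5b had 40.2 and 71.0 CPM in proliferating cells and 64.0 and 71.9 CPM in neurons. Here proliferating replicate 1 was the low library, and the pair differences were 0.67 and 0.02. The 2 genes therefore differed in which pair carried the difference. The ratio of Kdm5a to Kdm5b counts was 1.14 and 0.259 in proliferating cells, and neurons had 0.764 and 0.461, higher in replicate 1 for either group. Without proliferating replicate 1 the Kdm5a difference was 1.13 (edgeR adjusted p-value 0.231), and without proliferating replicate 2 it was -0.15.

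Kdm6b, which opposes Polycomb at lysine 27, went opposite ways in the pairs. It had 48.3 and 102 CPM in proliferating cells and 74.1 and 61.4 CPM in neurons. The pair differences were 0.62 and -0.73 on the log2 CPM scale, and the fitted value was -0.14 (SE 0.51). Proliferating replicate 2 was again the extreme library, at 2.10 times the lowest one.

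**Figure D2:**
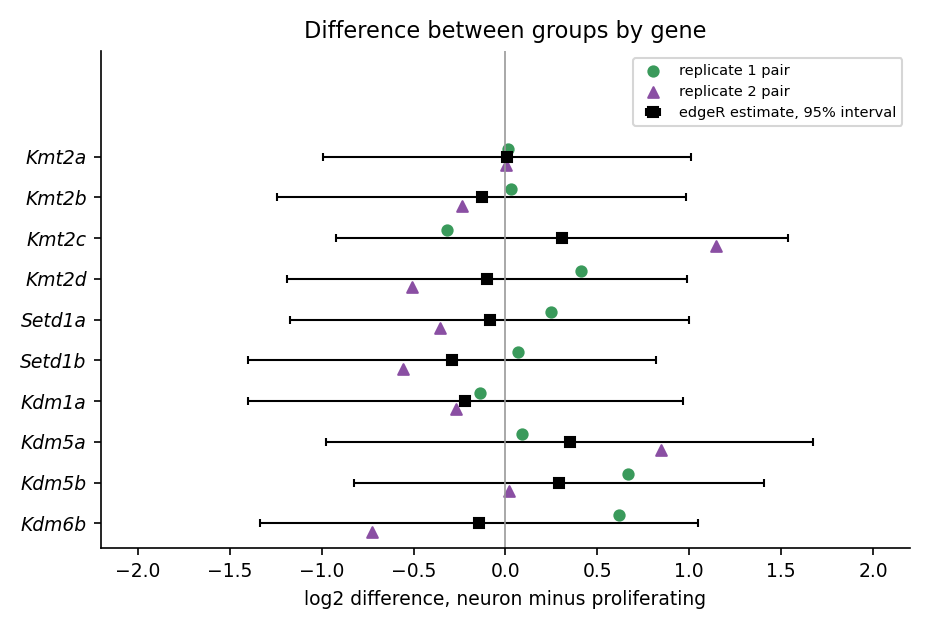
Log2 difference of each gene, neuron minus proliferating: squares with bars give the edgeR estimate and its 95% interval, circles the replicate 1 pair and triangles the replicate 2 pair, which have no test. All 10 intervals hold 0, and 6 genes have pair differences of opposite sign.

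The replicate pairs often disagreed in sign, in this set as over all tested genes. Pair differences had the same sign for 4 genes (Kmt2a, Kdm1a, Kdm5a and Kdm5b) and opposite signs for 6, while 54.3% of all tested genes had the same sign. In the replicate 1 pair 8 of the 10 genes were higher in neurons (median 0.08 on the log2 CPM scale), and in the replicate 2 pair 4 were higher (median -0.25). Counting error alone, as an SE of 0.063 to 0.147 on the log2 scale of a pair difference, was smaller than most of these values. It was larger than both pair differences of Kmt2a (0.011 and 0.005). The same held for the replicate 1 differences of Kmt2b (0.029) and Setd1b (0.068) and the replicate 2 difference of Kdm5b (0.018). The 2 proliferating replicates differed from each other by a median of 0.79 on the log2 scale over the 10 genes, and the neuron replicates by 0.22. Over all tested genes, not matched to the set for level, these medians were 0.73 and 0.47. The replicate 2 libraries also had the larger 18S shares, and proliferating replicate 2 detected 17762 genes against 20012 to 21637 in the others. The part of these differences in the pair values was not tested.

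Within the replicate 2 pair the differences followed the base composition of the transcripts. Kmt2c, Kdm5a and Kdm5b, the 3 genes with a transcript GC content under 50%, were all higher in the neuron library, at 1.14, 0.85 and 0.02. The 5 genes at 55% or more (Kmt2b, Kmt2d, Setd1a, Setd1b and Kdm6b) were all lower, from -0.24 to -0.73. Over the 10 genes the replicate 2 difference and transcript GC content correlated with r = -0.85 (rho = -0.87), and in the replicate 1 pair r was 0.27 (rho = 0.26). Over 11597 tested genes r was -0.38 (rho = -0.42) in the replicate 2 pair and -0.08 (rho = -0.08) in the replicate 1 pair. The genes share the same 4 libraries, and these values describe them with no test. The same trend ran through all tested genes: in the replicate 2 pair 67.4% of 5976 genes under 50% GC were higher in neurons and 66.9% of 2649 genes at 55% or more were lower, against 50.1% and 56.4% in the replicate 1 pair. These 8 members thus had the direction of most genes of like composition in the replicate 2 pair. In the replicate 1 pair the 5 members at 55% or more were all higher in neurons, while 56.4% of genes of that composition were lower. The values of Kmt2b (0.029) and Setd1b (0.068) there were below their counting SE, as was that of Kdm5b in the replicate 2 pair. Kmt2a, at 50.6% GC, had 0.005 in the replicate 2 pair, where 61.3% of genes from 50% to 55% were lower.

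**Figure D3:**
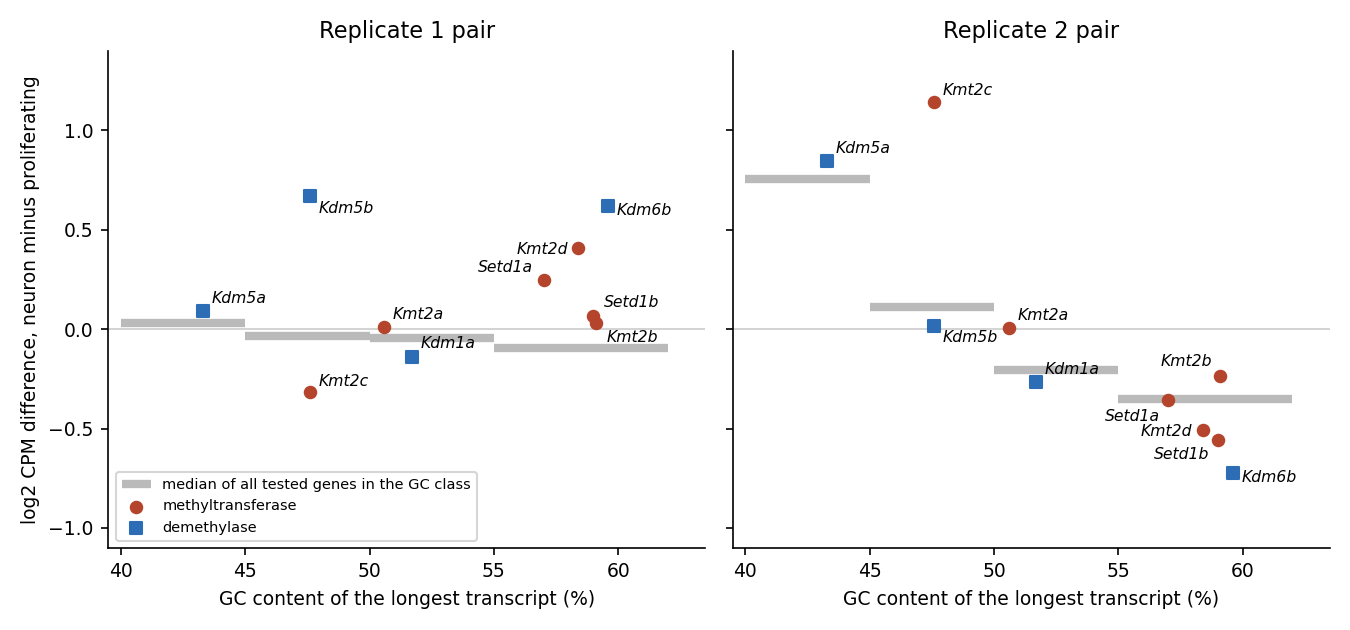
Log2 CPM difference (neuron minus proliferating) within each replicate pair against the GC content of the longest transcript, in percent, for methyltransferase (circles) and demethylase (squares) genes. Grey bars are medians of all tested genes in 4 GC classes, with the open-ended outer classes drawn only over the plotted range. In the replicate 2 pair these medians descend from 0.76 to -0.35, and the members under 50% GC lie above 0 while those at 55% or more lie below.

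A correction for the trend of each library with GC content narrowed the range over the 4 libraries for 8 of the 10 genes and widened it for Kmt2a (from 0.14 to 0.43 on the log2 CPM scale) and Kdm5b (from 0.83 to 1.03). The median range went from 0.81 to 0.56 for the 10 genes, and from 1.16 to 1.02 for all tested genes. Before the correction it was 1.03 for tested genes that averaged 50 counts or more, and neither background was matched for level. Among the 10 genes the replicate 2 differences still ran with GC content after the correction (r = -0.55, rho = -0.71, n = 10). The replicate 2 difference of Kdm5a went from 0.85 to 0.24, that of Setd1a from -0.36 to -0.01 and that of Kmt2b from -0.24 to 0.14. Kmt2c kept most of its difference, at 1.02 after the correction and -0.22 in the replicate 1 pair. Kdm5b and Kdm6b had 0.77 and 0.78 in the corrected replicate 1 pair and -0.11 and -0.35 in the corrected replicate 2 pair. The fitted difference of the 10 genes was then positive for all but Kdm1a (-0.07), with 0 called. Its median was 0.19, beside 0.05 for all tested genes. Within the corrected pairs, 8 of the 10 were higher in neurons in replicate 1 (median 0.21, all tested genes 0.09). In replicate 2 only 4 were higher (median -0.05, all tested genes 0.02). The correction turned the fitted direction of Kmt2b, Kmt2d, Setd1a, Setd1b and Kdm6b.

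**Figure D4:**
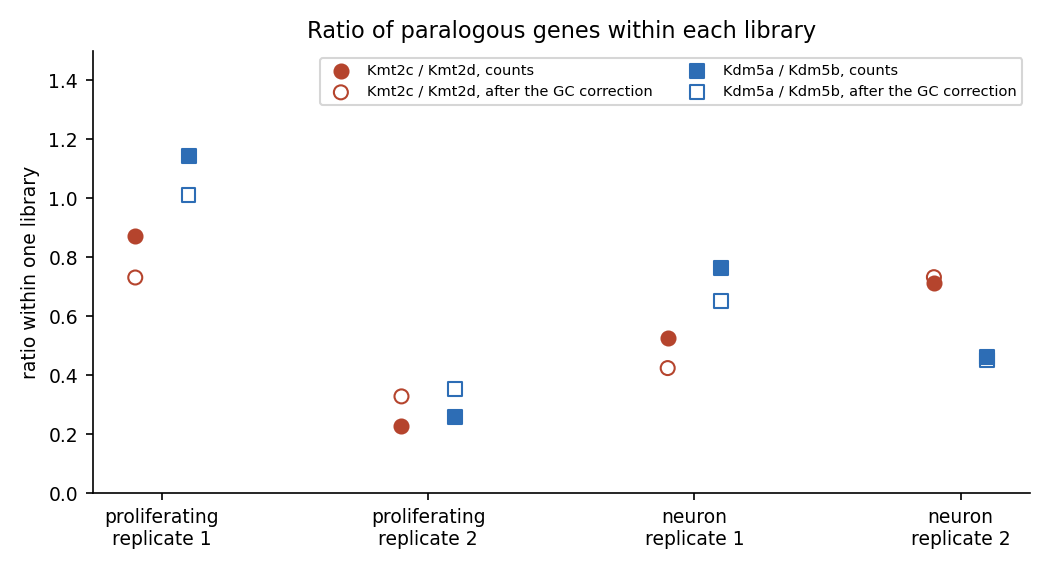
Ratio of counts of Kmt2c to Kmt2d (circles) and of Kdm5a to Kdm5b (squares) within each library on a linear axis, filled as counted and open after the GC correction. Proliferating replicate 2 has the lowest value of both ratios in either form, at 0.226 and 0.259 as counted and 0.328 and 0.355 after the correction.

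The transcripts in this set are also long. At 6487 to 19823 bases, 9 of the 10 lay above the 87th percentile of tested genes, and Kdm1a, at 3028 bases, was near the middle. In the replicate 2 pair the median difference was 0.77 for the 718 tested genes of 8000 bases or more, and -0.10 in the replicate 1 pair, while the 7 members of that length had medians of 0.005 and 0.07. A correction for length moved the fitted median of the 10 genes to -0.33, with Kmt2d at -1.04, and 0 called. With the replicate block added, the median was -0.18 and Kmt2d was at -0.61.

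Kmt2c and Kdm5b have equal transcript GC content, 47.6%. Their differences were 1.14 and 0.02 in the replicate 2 pair and -0.32 and 0.67 in the replicate 1 pair. The promoter sequences of both are shown for contrast, and a relation of promoter CpG to these differences was not tested. Here the 250 bases before the start site hold 48 CpG dinucleotides in Kmt2c (91.6% GC) and 13 in Kdm5b (54.4% GC), against a median of 6 over 32851 RefSeq start sites. CpG is the dinucleotide that the CXXC domains of KMT2A, KMT2B and the SETD1 partner CXXC1 recognise when it is unmethylated. The 120 bases of that window farthest from the start site are given 5′ to 3′ with each CG in capitals (RefSeq, GRCm38.p6; Kmt2c chr5:25498914-25499033, minus strand; Kdm5b chr1:134559928-134560047, plus strand).
Kmt2c: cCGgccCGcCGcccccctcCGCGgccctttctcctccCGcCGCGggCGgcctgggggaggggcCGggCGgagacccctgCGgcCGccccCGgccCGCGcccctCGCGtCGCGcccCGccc
Kdm5b: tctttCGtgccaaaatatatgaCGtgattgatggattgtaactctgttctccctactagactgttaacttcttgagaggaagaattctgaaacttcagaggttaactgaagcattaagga

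Of the 10 genes 6 had an entry in the promoter table (Kmt2a, Kmt2c, Kmt2d, Setd1a, Kdm1a and Kdm5b), with 13 to 48 CpG in the window. The motif GGGCGG (GC box, either strand) was found in Kmt2a, Kmt2c, Kmt2d and Kdm5b and in 32.7% of all windows. CACGTG (the E-box bound by MYC, either strand) was in none of the 6 windows and in 6.02% of all, and CCGGAAG (an ETS motif, either strand) was in none of the 6 and in 6.91% of all. TATAAA (the TATA box) and the palindromic NRF1 motif, searched likewise, were in none of the 6 and in 12.4% and 0.78% of all. None of these motifs contains another. These are matches of letters only.

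Levels of different genes were compared per length, as CPM per kb of the longest transcript. Kdm1a stood highest at 12.7 ± 3.86 (SD over 4 libraries), followed by Kdm6b at 10.7 ± 3.42, Kdm5b at 7.09 ± 1.70 and Kmt2d at 5.05 ± 1.18. The other genes were close together: Kmt2a at 3.70 ± 0.19, Kmt2c at 3.58 ± 1.14, Kmt2b at 3.47 ± 0.79, Setd1a at 3.47 ± 0.63, Kdm5a at 3.34 ± 1.27 and Setd1b at 2.75 ± 0.70. Each neighbour in this order overlapped the next over the libraries. Kdm1a, Kdm6b and Kdm5b took the first 3 places in all 4 libraries, and Kdm5a ranged from the fifth to the last. By the deposited RPKM the order differs, with Setd1a (2.50 to 5.05) and Kdm1a (2.42 to 4.06) high and Kmt2c (0.0432 to 0.221) lowest. The length behind those RPKM values was 5934 bases for Setd1a, which has 1 RefSeq transcript, and 490606 bases for Kmt2c, which has 30, so genes with many transcripts are understated there.

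**Figure D5:**
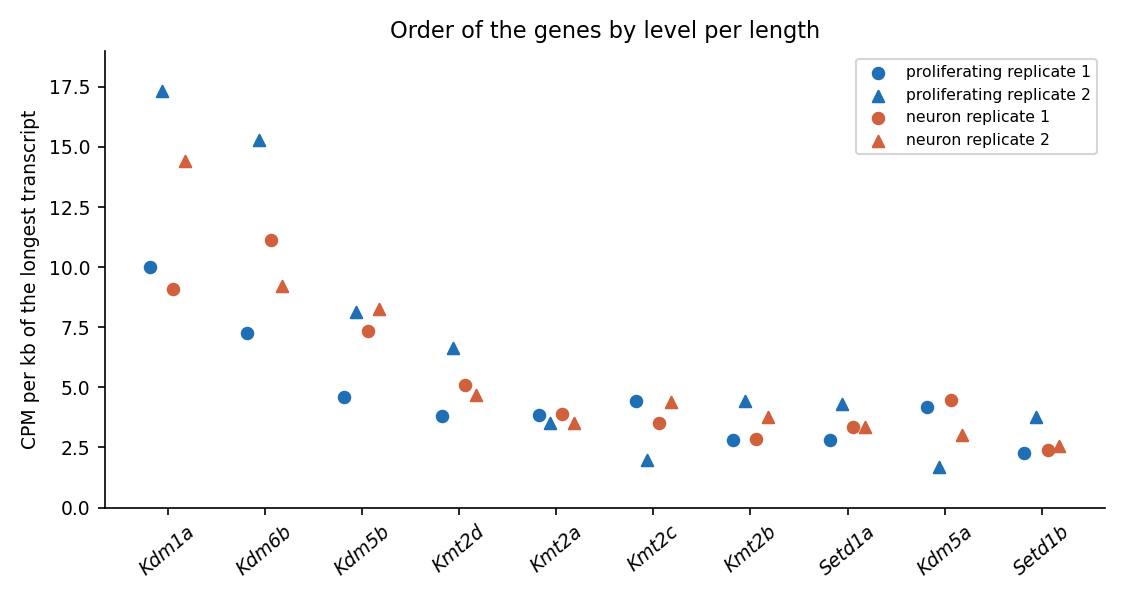
CPM per kb of the longest GENCODE transcript in each library (linear axis from 0), with genes ordered by their mean over the 4 libraries; colours and markers show group and replicate. The 3 demethylase genes Kdm1a, Kdm6b and Kdm5b lead the order, and each gene overlaps the next.

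Other genes of these complexes were read from 6 lists, 57 genes in all, of which 51 were tested and 0 called. The shared COMPASS subunits, needed by every one of the methyltransferases, had 2 of 4 genes higher and 2 lower, with a median log2 difference of -0.20. The largest difference was in Dpy30, which helps activate the enzymes, at -0.63 (SE 0.49), with 5.65 and 6.21 CPM in proliferating cells and 4.11 and 3.56 CPM in neurons. Its groups did not overlap, as was so for 27.4% of tested genes. Rbbp5, another core subunit, had the highest value of this list, 0.15 (SE 0.46).

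Of 14 complex-specific COMPASS and partner genes 6 were higher and 8 lower (median -0.04), and the groups of all 14 overlapped. The extremes were Bod1l at 0.55 (SE 0.68) and Bod1 at -0.47 (SE 0.64). Bod1l had 32.4 and 8.10 CPM in proliferating cells and 36.6 and 22.9 CPM in neurons, with proliferating replicate 2 far below the rest as for Kmt2c and Kdm5a. Among other methyltransferases with reported activity on lysine 4, 4 of 5 tested genes were higher (median 0.45). Their extremes were the meiotic gene Prdm9 at 0.81 (SE 0.81), with 0.540 to 1.63 CPM, and Smyd2 at -0.23 (SE 0.55).

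The partners of KDM1A had 9 of 11 tested genes higher in neurons and 2 lower, with a median of 0.36, beside 52.0% of all tested genes higher. Their groups did not overlap for 3 genes, all higher in neurons: the deacetylase genes Hdac1 and Hdac2 and Zmym2, and 12.9% of tested genes met that condition. Zmym2 had the largest difference, 0.83 (SE 0.57), with 28.4 and 10.9 CPM in proliferating cells and 41.3 and 28.8 CPM in neurons. The GC correction turned the replicate 2 difference of Hdac2 from 0.34 to -0.43. For Zmym2 it lowered the replicate 2 difference from 1.38 to 0.25 and left the replicate 1 difference at 0.53. Hmg20b, a CoREST subunit gene, had the lowest value, -0.47 (SE 0.65). Hdac1 and Hdac2 were named after their values were seen.

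The remaining KDM1, KDM5 and KDM6 genes (Kdm1b, Kdm5c, Kdm5d, Kdm6a and Uty) all had small positive values, from 0.01 for Kdm1b to 0.22 for Kdm5d, and their groups overlapped. Demethylases of other lysines had 7 genes higher and 6 lower of 13 tested, with a median of 0.0086. Kdm7a was highest at 0.57 (SE 0.68) and Riox1 lowest at -0.66 (SE 0.61). Across the 6 lists, 22 of 30 genes under 50% GC were higher in neurons in the replicate 2 pair and 9 of 12 genes at 55% or more were lower, shares of 73.3% and 75.0%, near those of all tested genes of like composition.

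The mean profile of the 10 genes, as log2 CPM centred on each gene's mean, was -0.17 and 0.12 in proliferating replicates 1 and 2, and neuron replicates had -0.002 and 0.054. The tested genes closest to it, by Euclidean distance over the 4 libraries among those that averaged 50 counts or more, were Nif3l1 (0.0398), Gm23301 (0.0486), Snora62 (0.0535), Gm25970 (0.0555) and Ankrd40 (0.0612). The median distance of such genes was 0.79. The members themselves lay at 0.26 (Setd1a) to 1.28 (Kdm5a).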

How the data were processed

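Stranded libraries of total RNA depleted of ribosomal RNA, from 4 cultures (2 proliferating, 2 neuron), were used, with groups and replicate numbers from the sample titles. For every library the authors deposited a table of raw counts and a table of RPKM, by gene symbol. Per the submitters' processing notes, HISAT2, SAMtools, featureCounts, DESeq2 and deepTools 3.4.3 and the build mm10 are named, and settings, annotation and use of strand are not given in the sources used here. All 49997 symbols matched the RefSeq table of GRCm38.p6.

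The test was edgeR 4.0.16 in R 4.3.3: TMM, filterByExpr (minimum count 10, minimum total 15), quasi-likelihood, group as the single term, fitted on all genes (12783 tested) with Benjamini-Hochberg adjustment, two-sided, threshold 0.05. The SE was taken from the F statistic. Pair differences use log2 CPM (prior count 2). With 2 cultures a group, the spread behind a p-value comes partly from the gene and largely from the trend over all genes (prior degrees of freedom 5.38). It covers these cultures only. Both replicate 2 titles carry the words set 2, so the numbers were taken to pair the libraries, and deviations of same-numbered libraries correlated at r = 0.33. Counts were taken without molecular identifiers, so counting errors cover counting only.

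GC content and length came from the longest GENCODE M21 transcript, matched for 90.7% of tested genes, and the corrections used a lowess per library (span 0.3) as offsets. Alternatives were RLE, library size alone, the 18S row left out, DESeq2 1.42.0, other filters, limma 3.58.1 on RPKM (log2 with a pseudocount of 1 or of 0.1), the replicate block, both corrections with and without it, and each library left out. The methods were tested on simulated data whose changes were larger than any fitted for the members, so that test does not cover differences of the members' size. The members, lists and naming rule (all members, the extremes of each list, the 5 genes nearest the mean profile) were chosen with earlier results of these data known.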

Additional observations from a re-analysis of the deposited data

How the results depend on the processing

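Of the 10 genes, 0 were called under any of the 17 alternatives, and the lowest adjusted p-value was 0.231 (Kdm5a without proliferating replicate 1). The replicate block changed no call of these genes. Over all genes, the count of calls, 0 in the main test (438 at an unadjusted p-value under 0.05), was 3 with the replicate block, 3 with the GC correction and replicate block, 244 with the length correction and replicate block, 2 with library size alone, 163 without a filter, 60 with DESeq2 (1240 adjusted p-values not given), 1 with log2(RPKM + 1) and 2 with log2(RPKM + 0.1), and 18 to 123 without each library in turn, where the lone library of a group is assumed to vary like the other group. The cause was not tested.

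The median of the 10 genes, -0.09, was -0.33 with the length correction, 0.19 with the GC correction, 0.19 with the GC correction and replicate block, and -0.43 to 0.26 without each library in turn. Library size alone moved the median of all genes to -0.27. Fitted directions, none of them called, turned in 22 cases outside the left-out libraries. With the GC correction, and in brackets with the replicate block added, Kmt2b was 0.16 (0.16), Kmt2d 0.23 (0.21), Setd1a 0.20 (0.20), Setd1b 0.024 (0.02) and Kdm6b 0.23 (0.22). With library size alone Kmt2a was -0.28, Kmt2c -0.22 and Kdm5a -0.073. With the length correction Kmt2a was -0.61 (-0.48 with the replicate block), Kmt2c -0.027 (-0.039) and Kdm5b -0.10. With log2(RPKM + 1) Kmt2a was -0.10 and Kmt2c -0.02, and with log2(RPKM + 0.1) -0.20 and -0.013.

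Without each library in turn, Kmt2a ranged from -0.095 to 0.074, Kmt2b from -0.46 to 0.26, Kmt2c from -0.13 to 0.96, Kmt2d from -0.48 to 0.37, Setd1a from -0.40 to 0.27, Setd1b from -0.65 to 0.14, Kdm1a from -0.60 to 0.25, Kdm5a from -0.15 to 1.13, Kdm5b from -0.10 to 0.77 and Kdm6b from -0.62 to 0.51. The SE of a pair difference from counting alone was 0.063 to 0.147 on the log2 scale.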
